A study of Homo sapiens with 2 samples.

Results

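The insulin-like growth factor (IGF) axis was described in the ATAC-seq libraries of G401 cells as 9 genes: the ligand *IGF1*, its receptor *IGF1R*, and the IGF-binding protein genes *IGFBP1* to *IGFBP7*. The genes were taken by name, and their peaks were all called peaks that overlapped the gene body or the 3 kb on either side of the transcription start site (TSS). By this rule, 108 of 114060 peaks in the DMSO library and 140 of 161184 peaks in the MAK683 library belonged to the 9 loci, and the 9 genes were compared with all 20163 protein-coding genes. G401 is an established malignant rhabdoid tumor line of renal origin, and it is described as deficient in *SMARCB1*, a subunit of the SWI/SNF remodeller. Both cultures share this deficiency, and both were grown in the same medium, with 1 treated with DMSO, the solvent, and 1 with MAK683, an inhibitor of the EED subunit of the histone methyltransferase PRC2, for 3 days. The dose of MAK683 was 3 μM. ATAC-seq marks open chromatin by inserting adapters with the Tn5 transposase. Each group is 1 library, so the differences have no replicates behind them and are given without p-values. Intervals, apart from that of the median over the genes, are 95% intervals from the counts of tags or peaks alone. None of them holds the variation between cultures. In a culture of many cells, opening in fewer cells and weaker opening per cell cannot be told apart.

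IGF1 is a growth factor that binds the receptor tyrosine kinase IGF1R and sends survival and growth signals into the cell. The binding proteins are secreted carriers that hold IGFs outside the cell, prolong their life in the circulation and often keep them from the receptor. IGFBP1 to IGFBP6 bind IGFs with high affinity, whereas IGFBP7 binds them weakly. Several of them are known among the factors that senescent cells secrete, and PRC2 is known to keep many developmental and secreted-factor genes silent. The study profiled these cells to learn what changes when PRC2 is blocked in sensitive tumor cells.

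After filtering, the DMSO library held 16598348 tags and the MAK683 library 18265284, so that 1 tag over a summit equals 0.0602 or 0.0547 tags per 1000000 filtered tags (RPM). The MAK683 library had 1.41 times as many peaks and 1.13 times the covered length, and its median peak was lower (0.547 RPM against 0.663 RPM). Where both libraries had called a peak, at 57983 regions genome-wide, MAK683 heights were lower by the median (log2 ratio -0.33). No peak was called within 3 kb of the *SMARCB1* TSS in either library. Such a peak was called at 72.7% of all protein-coding genes in DMSO and at 78.7% in MAK683. Its absence is thus common and does not identify the line.

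The promoters of the axis differ in base composition, and 4 of them are shown because the later results turn on them. The bases are read from the GRCh37 genome in the direction of each gene and lie upstream of the TSS and outside the exons of that gene. Capitals mark CpG dinucleotides. The *IGFBP1* stretch is chr7:45927837-45927958 (plus strand), *IGFBP3* chr7:45960872-45961121 (minus), *IGFBP5* chr2:217560273-217560522 (minus) and *IGF1R* chr15:99191518-99191767 (plus).
IGFBP1: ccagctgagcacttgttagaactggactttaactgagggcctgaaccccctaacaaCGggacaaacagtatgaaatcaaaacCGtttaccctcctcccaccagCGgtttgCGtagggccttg
IGFBP3: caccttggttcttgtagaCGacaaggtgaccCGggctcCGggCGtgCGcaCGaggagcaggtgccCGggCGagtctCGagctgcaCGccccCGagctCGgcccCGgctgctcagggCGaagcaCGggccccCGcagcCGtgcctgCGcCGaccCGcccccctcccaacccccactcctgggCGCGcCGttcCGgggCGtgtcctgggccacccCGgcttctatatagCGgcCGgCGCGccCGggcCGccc
IGFBP5: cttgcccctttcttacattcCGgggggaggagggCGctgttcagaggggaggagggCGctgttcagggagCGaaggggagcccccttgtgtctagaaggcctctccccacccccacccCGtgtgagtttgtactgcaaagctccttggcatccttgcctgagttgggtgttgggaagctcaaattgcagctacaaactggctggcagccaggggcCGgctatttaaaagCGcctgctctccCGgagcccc
IGF1R: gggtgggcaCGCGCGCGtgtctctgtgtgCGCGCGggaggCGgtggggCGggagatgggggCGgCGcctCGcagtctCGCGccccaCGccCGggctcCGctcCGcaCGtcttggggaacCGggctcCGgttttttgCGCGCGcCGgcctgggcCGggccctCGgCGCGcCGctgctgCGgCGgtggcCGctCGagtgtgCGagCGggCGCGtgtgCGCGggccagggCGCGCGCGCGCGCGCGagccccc
In the 300 bases from 250 before to 50 after the TSS, the *IGF1R* promoter held 55 CpGs and the *IGFBP3* promoter 36, whereas the *IGFBP5* promoter held 9. The ratio of observed to expected CpGs was 1.19 for *IGF1R*, 0.867 for *IGFBP3*, 0.83 for *IGFBP1*, 0.825 for *IGFBP2* and 0.746 for *IGFBP4*. It was 0.422 for *IGFBP6* and 0.347 for *IGFBP5*, the values of *IGF1* and *IGFBP7* are not reported here, and the median over 20140 protein-coding promoters was 0.773. Over the same 300 bases, which reach beyond the stretches shown, the GC content of the 4 promoters ranged from 57.3% at *IGFBP1* to 79.7% at *IGF1R*. The median over all promoters was 63.7%. The printed *IGFBP1* stretch ends at -129 bp from the TSS, and its own GC content is 51.6%. The letters GGGCGG, on either strand, were in 6 of the 9 member promoters and in 61.0% of all promoters. TATAAA was in 2 (*IGFBP1* and *IGFBP4*) against 9.79% of all promoters, CCAAT in 1 (*IGFBP1*) against 36.0%, and CACGTG in 0 against 8.74%. TGACTCA or its reverse complement was in 0 against 3.57%. The matches at *IGFBP1* lie outside its printed stretch. A match or its absence describes only these letters in this window.

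Promoter peaks were called at more genes of the axis in the MAK683 library, as they were over all genes. A peak within 3 kb of the TSS was called at 7 of the 9 genes in DMSO, where 72.7% of all protein-coding genes had one, and at 9 of 9 in MAK683, where 78.7% had one. The 2 genes with a promoter peak only in MAK683 were *IGFBP1* and *IGF1*, a state shared by 7.87% of all genes. With the TSSs of all basic transcripts, of which *IGF1* has 5, *IGF1* had a peak near another start in DMSO too, so that 8 of the 9 genes had one, and its log2 change was 0.69. The TSS itself lay under a peak at 5 genes in DMSO and at 8 in MAK683. Start sites covered only in MAK683 were those of *IGFBP3*, *IGFBP7* and *IGF1*, and that of *IGFBP1* lay outside called peaks in both libraries.

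The height of the tallest promoter peak was higher in MAK683 at 7 of the 9 genes and lower at *IGFBP6* and *IGF1R*. The median log2 change over the 9 genes was 0.32, and the changes ran from -0.68 to 1.28. The order-statistic interval of this median was -0.46 to 0.86. It takes the 9 chosen genes as if drawn independently, and says nothing about replicates. Over the 16247 genes with a promoter peak in either library the median was -0.42, and 21.5% of these genes were higher in MAK683. The median promoter height over all genes with a peak was 1.93 RPM in DMSO and 1.31 RPM in MAK683. Most genes of the axis had a lower peak than this in DMSO, or none. They were not compared with genes of like height in DMSO, and the part of starting height in the difference was not tested. *IGF1*, *IGFBP1* and *IGFBP5* were at least 1.5-fold higher, which 9.64% of all genes with a promoter peak were. *IGFBP6* was at least 1.5-fold lower, as were 32.8% of all genes. For *IGF1* and *IGFBP1* the change was taken against 0.361 RPM, a floor used in place of a missing peak, and it depends on that floor. When only genes with a peak in both libraries were used, 1 gene of the axis was at least 1.5-fold higher, *IGFBP5*. When heights were divided by the median of the shared regions, which moves the median of all promoters to -0.10, 5 genes were higher by this measure and 0 were lower.

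**Figure D1:**
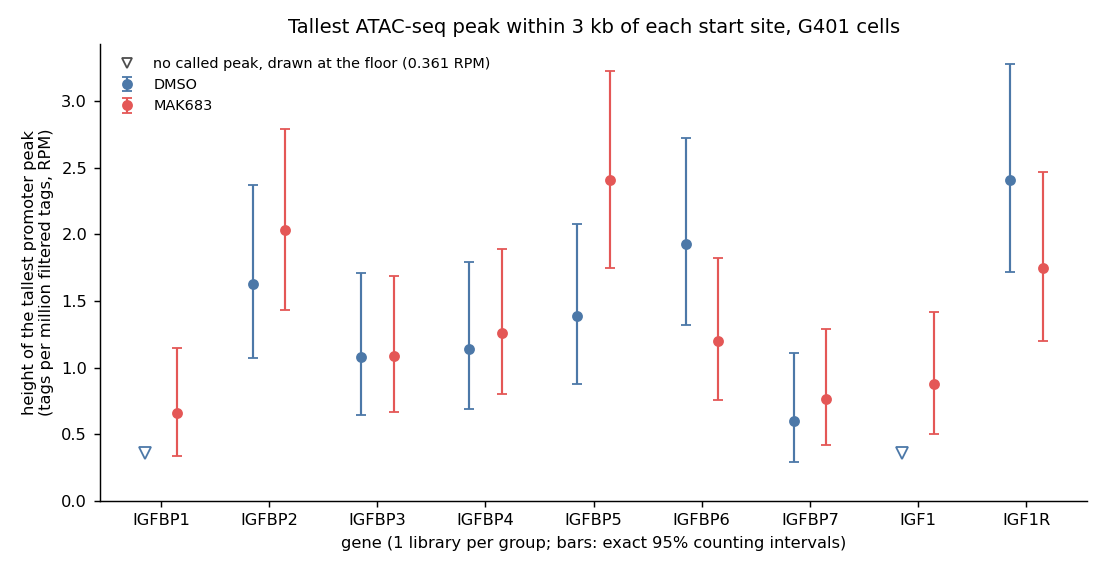
Height of the tallest peak within 3 kb of each TSS, in tags per 1000000 filtered tags (RPM), for the DMSO library (blue) and the MAK683 library (red), with exact 95% counting intervals. Open triangles stand for the absence of a called peak and are drawn at 0.361 RPM. The intervals of the libraries overlap at every gene with a peak in both, *IGFBP5* included, whose points (1.39 and 2.41 RPM) lie the farthest apart in favour of MAK683.

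*IGFBP5* encodes a binding protein that also attaches to extracellular matrix. Its tallest promoter peak held 23 tags (1.39 RPM, 0.878 to 2.08) in DMSO and 44 tags (2.41 RPM, 1.75 to 3.23) in MAK683. The log2 change was 0.80 (0.07 to 1.53), which placed it at the 94.3rd percentile of all promoters. This was the only gene of the axis with a peak in both libraries whose interval for the change did not include 0. The shape of the promoter differed as well. In DMSO 6 separate peaks of 201 to 1070 bp lay in the promoter window, with the one over the TSS at 15 tags. In MAK683 a single peak of 7338 bp ran across the window, chr2:217556733-217564070, which was highest 1303 bp before the TSS. Within the gene body, the peaks 12.9 kb, about 7.7 kb and about 6.4 kb into the gene were called in both libraries and were taller in MAK683 (20, 19 and 20 tags against 11, 11 and 11). All 4 regions of the locus with a peak in both libraries were higher in MAK683, with a median log2 ratio of 0.72. Covered length was 5630 bp in DMSO and 11810 bp in MAK683, although the number of peaks went from 11 to 9. The antisense RNA gene *DIRC3-AS1* starts 1145 bp inside *IGFBP5*, and peaks there cannot be assigned to either gene.

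The 201 bases around the MAK683 summit upstream of *IGFBP5*, chr2:217561475-217561675 on the minus strand, are shown because the long peak is highest there. They hold no CpG, and their GC content is 47.3%. Capitals mark the only match to the letters searched, the reverse complement of CCAAT.
IGFBP5 summit: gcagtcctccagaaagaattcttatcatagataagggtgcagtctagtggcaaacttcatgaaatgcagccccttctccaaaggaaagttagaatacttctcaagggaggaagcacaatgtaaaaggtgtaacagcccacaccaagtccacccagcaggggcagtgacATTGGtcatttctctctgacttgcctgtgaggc
CCAAT, on either strand, was in 22.2% of all windows of this length around MAK683 summits.

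*IGFBP3* encodes the main carrier of IGFs in serum. Its tallest peak in the promoter window held 18 tags (1.08 RPM) in DMSO and 20 tags (1.09 RPM) in MAK683. The log2 change was 0.01 (-0.90 to 0.93), the 78.8th percentile of all promoters. The tallest peak had its summit 3.5 kb inside the gene, in an intron, and in DMSO only its edge reached the window. Over the TSS the libraries differed in what was called: no peak in DMSO, and in MAK683 a peak of 630 bp with 13 tags (0.712 RPM), its summit 57 bp inside the gene. A second peak 1.04 kb inside the gene, with 10 tags, was also called only in MAK683. The peak upstream of the gene held 15 tags in DMSO, 1.33 kb from the TSS, and 19 tags in MAK683, 1.15 kb from it. The locus had 3 peaks in DMSO and 4 in MAK683, and covered length was 1637 bp and 4857 bp, a ratio of 2.97. The libraries thus differed at *IGFBP3* in covered length around the start and hardly in the tallest peak.

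*IGFBP1*, a binding protein made mainly by liver and decidua, neighbours *IGFBP3* on chromosome 7. Its locus had 0 peaks in DMSO and 5 in MAK683. The MAK683 peaks held 7, 12, 11, 10 and 10 tags in order along the gene, with summits at -2.5, -1.15, 0.156, 1.04 and 3.91 kb from the TSS. All were low, near the median peak of 10 tags in this library. The tallest, 12 tags (0.657 RPM, 0.339 to 1.15), gave a log2 change of 0.86 over the floor, the 95.1st percentile. It was 0.42 with equal numbers of peaks and 0.12 with a −log10 q of at least 5, both under 1.5-fold. With a minimum −log10 q of 10 the locus had no MAK683 peak.

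*IGF1*, the ligand, was likewise without a peak in DMSO and had 9 in MAK683. Of these, 5 lay in the promoter window and 4 in the gene body. The tallest held 16 tags (0.876 RPM, 0.501 to 1.42) with its summit 1.32 kb inside the gene, and the peak over the TSS held 15 tags (0.821 RPM). The log2 change over the floor was 1.28, the 98.2nd percentile of promoters and the largest of the axis. The peaks in the gene body were low, with 7 to 9 tags at 26.6, 40.3, 41.8 and 60.9 kb. When peaks under a −log10 q of 10 were dropped, the missing DMSO peak was replaced by a higher floor and the log2 change was -0.04, and with a minimum of 5 it was 0.54, under 1.5-fold. The long noncoding genes *HELLPAR* and *LINC02456* overlap *IGF1*.

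*IGFBP7* encodes a secreted protein with weak affinity for IGFs. Its promoter heights differed by less than their counting error, with 10 tags (0.602 RPM) in DMSO and 14 tags (0.766 RPM) in MAK683. The log2 change was 0.35 (-0.82 to 1.52), the 86.6th percentile of all promoters. In DMSO 2 separate peaks lay 126 and 983 bp upstream of the TSS, and in MAK683 a single peak of 1363 bp spanned both and covered the TSS. The gene body differed far more. It held 3 peaks in DMSO and 30 in MAK683, all with their summits in introns. The contrast shrank with stricter peak filters: the locus held 5 peaks in DMSO and 32 in MAK683 as called, 4 and 17 with a −log10 q of at least 5, and 1 and 4 with at least 10. Covered length over the whole locus was 2366 bp (2.86%) in DMSO and 21887 bp (26.5%) in MAK683, a ratio of 9.25. Only 121 of 17634 genes with a locus peak had a larger increase in covered length, which puts *IGFBP7* at the 99.31st percentile. By the number of added peaks, 312 genes exceeded it. Both ranks use all called peaks and are not scaled by length, which favours long loci such as this one of 82.6 kb. Of the 32 MAK683 peaks at the locus, 30 overlapped no DMSO peak. The 32 peaks ran from the promoter to 72.2 kb into the gene and were mostly low, with a median of 11 tags and a range of 7 to 28.

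The tallest of them, 28 tags (1.53 RPM), lay 11.8 kb inside *IGFBP7*, chr4:57963741-57965490, where DMSO had no peak. The tallest DMSO peak at the locus, also 28 tags (1.69 RPM), lay 72.2 kb inside the gene and was called in MAK683 with 20 tags (1.09 RPM). The pair of tall peaks therefore sat at opposite ends of the gene. The 201 bases around the MAK683 summit, chr4:57964616-57964816 on the minus strand, are shown as the strongest site of the body without a DMSO peak.
IGFBP7 body summit: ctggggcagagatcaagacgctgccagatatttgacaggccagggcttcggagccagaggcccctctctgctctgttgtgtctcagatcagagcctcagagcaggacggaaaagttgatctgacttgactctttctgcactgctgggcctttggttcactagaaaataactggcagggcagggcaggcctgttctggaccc
It is in lower case throughout because none of the searched letters occurs in it, and it holds 3 CpGs. Over all 32 MAK683 summits of the locus, CCAAT was in 4 windows, GGGCGG in 1 and the other letters in 0, and the median GC content was 48.8%, beside 51.2% over all MAK683 summits. Several other transcripts overlap this gene, among them *IGFBP7-AS1*, which starts 605 bp inside it on the opposite strand, and a long noncoding gene starting 162 bp upstream of its TSS, so the peaks near the start have no single owner.

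**Figure D2:**
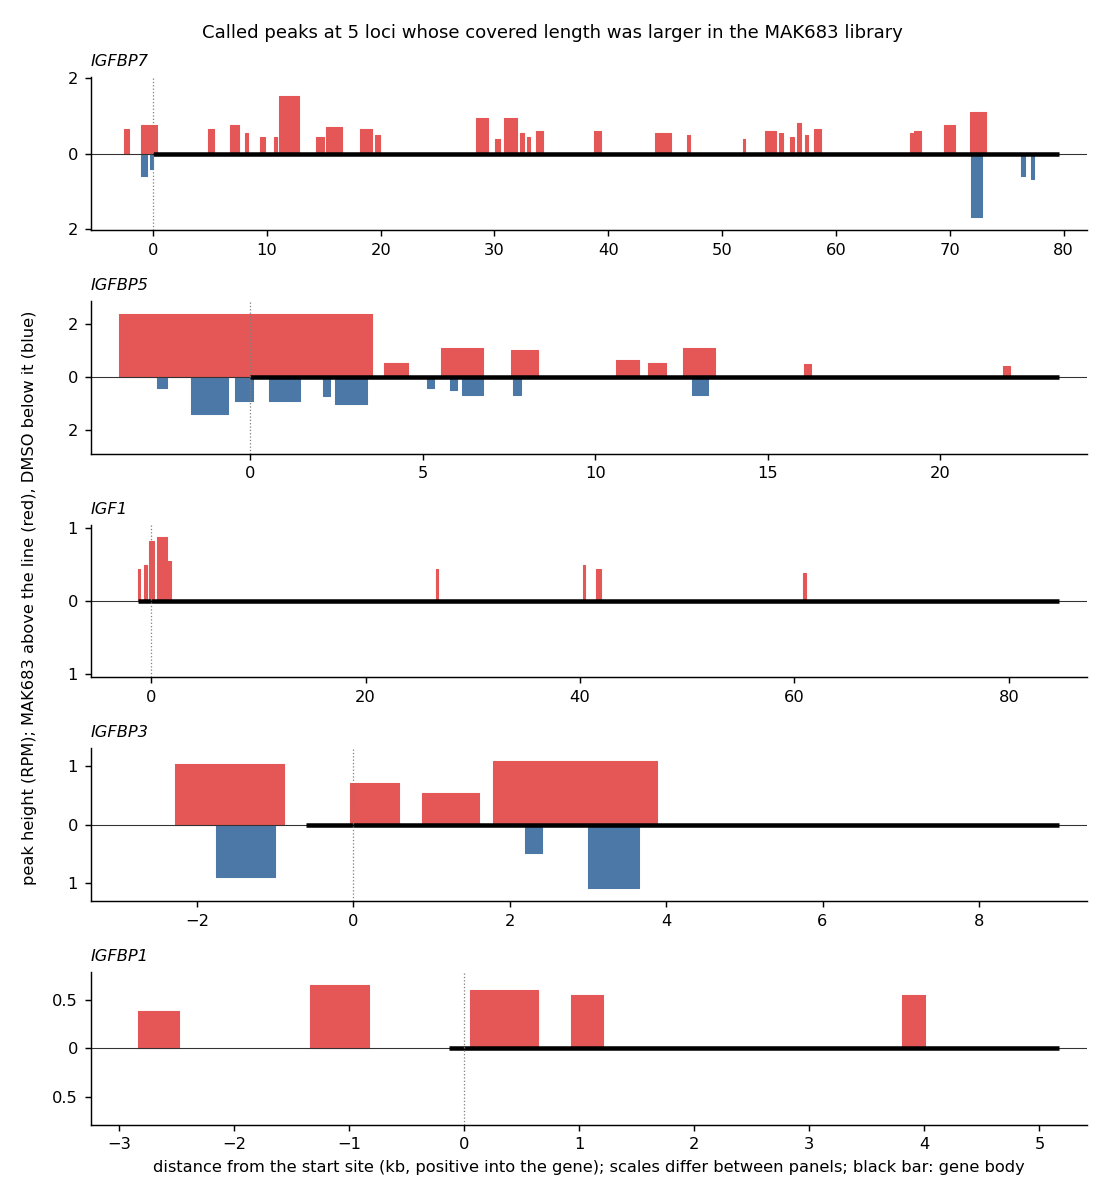
Called peaks at *IGFBP7*, *IGFBP5*, *IGF1*, *IGFBP3* and *IGFBP1* by distance from the TSS in kb, positive into the gene, drawn as boxes as wide as the peak and as high as its summit in RPM. MAK683 peaks stand above the line and DMSO peaks below it. MAK683 boxes fill the *IGFBP7* body (32 against 5 at the locus), 1 long box spans the *IGFBP5* start, and *IGF1* and *IGFBP1* have boxes only above the line.

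Of the remaining carriers, *IGFBP2* and *IGFBP4* differed by less than their counting error. *IGFBP2*, one of the IGF carriers abundant in fetal tissue, held 27 tags (1.63 RPM) in DMSO and 37 tags (2.03 RPM) in MAK683 in a peak over the TSS, a log2 change of 0.32 (-0.40 to 1.03). *IGFBP4*, an inhibitory carrier cleaved by the protease PAPPA, held 19 tags (1.14 RPM) and 23 tags (1.26 RPM), a log2 change of 0.14 (-0.74 to 1.01). The changes of *IGFBP2* and *IGFBP4* lay at the 86.2nd and 82.2nd percentiles of all promoters, whose median change was -0.42. At *IGFBP4* the tallest peaks were not at the same place. The peak over the TSS held 19 tags in DMSO and 11 tags in MAK683, and the 23 tags were in a separate peak 374 bp inside the gene. *IGFBP4* also had a shorter covered length in MAK683, 1732 bp against 2815 bp.

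*IGFBP6*, a carrier that prefers IGF2, was the only binding protein gene with a lower promoter. Each library had 1 long peak there, of 32 tags (1.93 RPM, 1.32 to 2.72) in DMSO and 22 tags (1.20 RPM, 0.755 to 1.82) in MAK683. The log2 change was -0.68 (-1.46 to 0.10), the 24.1st percentile of all promoters. The covered length was 3676 bp and 3299 bp.

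*IGF1R*, the receptor, held most of the called peaks of the axis in both libraries. Its locus of 319 kb had 84 peaks in DMSO and 73 in MAK683, against 24 and 67 at the other 8 loci together. Its promoter peak held 40 tags (2.41 RPM) in DMSO and 32 tags (1.75 RPM) in MAK683, a log2 change of -0.46 (-1.13 to 0.21) at the 46th percentile. The summits lay 1133 and 1045 bp upstream of the TSS, close to the start of the noncoding gene *IRAIN* on the opposite strand, 1155 bp upstream. Covered length was 59043 bp in DMSO and 49101 bp in MAK683. Of 94 merged regions at the locus, 49 had a peak in both libraries, 28 in DMSO only and 17 in MAK683 only. In the 49 shared regions MAK683 was higher in 10 and lower in 39, with a median log2 ratio of -0.43, beside -0.33 over all shared regions of the genome.

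The tallest peak of *IGF1R* was not at its promoter. In DMSO it held 55 tags (3.31 RPM) with its summit 204 kb inside the gene, and the MAK683 peak there held 30 tags (1.64 RPM). The next peak, 203 kb inside the gene, held 31 tags (1.87 RPM) and 32 tags (1.75 RPM). The other intronic sites of at least 22 tags in DMSO held fewer tags in MAK683 at 131 kb (28 and 20), 208 kb (25 and 19), 79.3 kb (23 and 16), 217 kb (23 and 19), 226 kb (22 and 18) and 9.47 kb (22 and 12). The site at 152 kb held 22 and 23 tags (1.33 and 1.26 RPM). In RPM all of these sites were lower in MAK683, but they were picked by their height in DMSO, which favours this direction. Shared regions genome-wide were lower as well by the median (log2 ratio -0.33). In MAK683 the intronic peaks of at least 22 tags were those at 203, 204 and 152 kb, with 32, 30 and 23 tags. The DMSO peak of 55 tags was the tallest at any locus of the axis in either library.

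**Figure D3:**
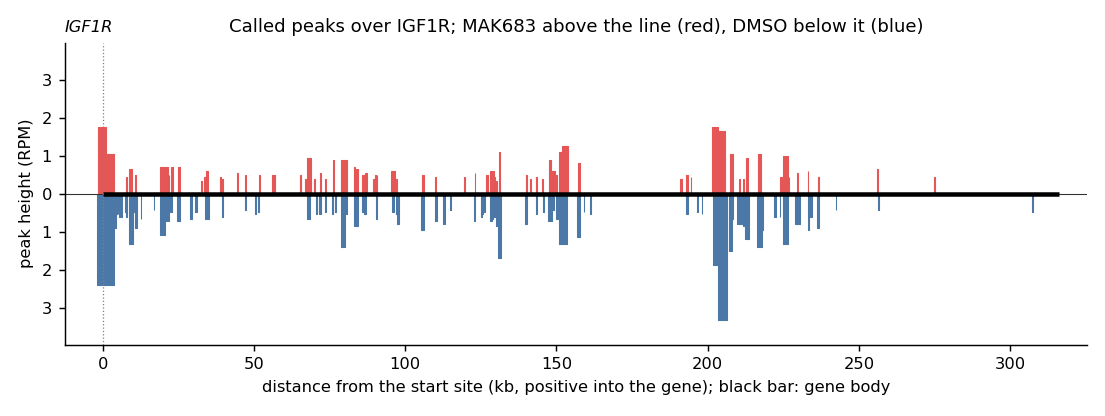
Called peaks over *IGF1R* by distance from the TSS in kb, with MAK683 above the line and DMSO below it, each box as wide as the peak and as high as its summit in RPM. The libraries share the groups of peaks at the start and near 204 kb, where the DMSO peak reaches 3.31 RPM and the MAK683 peak 1.64 RPM.

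Over the 9 loci together, peaks were 1.30 times as many in MAK683, beside 1.41 in the whole library. This direction depended on low peaks: with equal numbers of peaks per library the loci held 108 in DMSO and 97 in MAK683 (*IGF1R* 84 and 44), and peaks with a −log10 q of 5 or more numbered 69 and 63. At the 8 loci other than *IGF1R* the ratio was 2.79, with *IGFBP7* the main contributor. Without *IGFBP7* as well, left out after seeing the data, the 7 remaining loci had 19 and 35 peaks, a ratio of 1.84, and without *IGFBP7* alone the axis had 103 and 108. Covered length was 79.4 kb in DMSO and 103 kb in MAK683, and without *IGF1R* it was 20.3 kb and 53.6 kb. The genes differed among themselves. *IGFBP1*, *IGFBP2*, *IGFBP3*, *IGFBP4*, *IGFBP7* and *IGF1* had more locus peaks in MAK683, which 36.8% of all genes with a locus peak had, whereas *IGFBP5* had fewer and *IGFBP6* the same number. The covered length was longer in MAK683 at 6 genes, against 34.3% of all genes, and these included *IGFBP5* but not *IGFBP4*. Among peaks of at least 15 tags, the 8 loci had 12 in DMSO and 17 in MAK683, and *IGF1R* had 19 and 16. Among peaks of at least 20 tags the numbers were 4 and 9, and 11 and 6. These cutoffs are in unscaled tags and admit lower MAK683 peaks, because that library is deeper. A peak of 20 tags is 1.2 RPM in DMSO and 1.09 RPM in MAK683. Several of the MAK683 peaks counted at the 8 loci held exactly 20 tags.

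**Figure D4:**
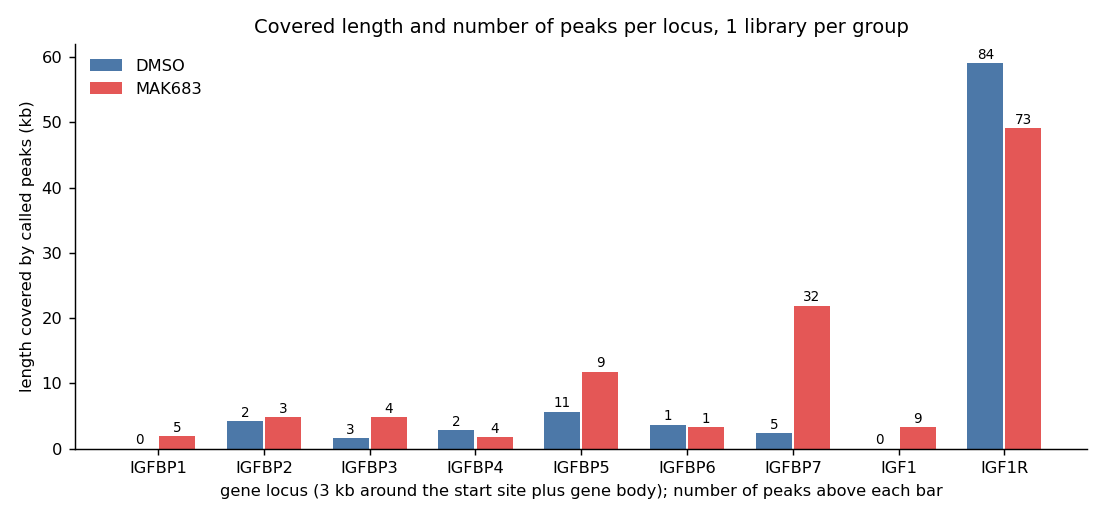
Length covered by called peaks at each locus in kb, for DMSO (blue bars) and MAK683 (red bars), with the number of peaks above each bar. The red bar is longer at *IGFBP1*, *IGFBP2*, *IGFBP3*, *IGFBP5*, *IGFBP7* and *IGF1*, and shorter at *IGFBP4*, *IGFBP6* and *IGF1R*.

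A DMSO peak at these loci overlapped a MAK683 peak in 71.3% of cases (Wilson interval 62.1 to 79.0%), beside 56.2% of all DMSO peaks. A MAK683 peak overlapped a DMSO peak in 70 of 140 cases (41.8 to 58.2%), beside 43.2% of all MAK683 peaks. *IGF1R* weighs heavily here. At the other 8 loci 21 of 24 DMSO peaks but only 14 of 67 MAK683 peaks were shared. At these 8 loci most DMSO sites were thus also called in MAK683, and most MAK683 sites had no DMSO peak. Both also held for all peaks of the libraries, and 30 of the unshared MAK683 peaks were at *IGFBP7* alone.

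The surroundings of the genes also differed between the libraries, and not always in the direction of the gene. In the 1 Mb on either side of the locus, the ratio of MAK683 to DMSO peak numbers was 3.54 at *IGF1*, 2.88 at *IGFBP3*, 2.84 at *IGFBP5*, 2.66 at *IGFBP1* and 2.65 at *IGFBP2*. It was 1.76 at *IGFBP7*, 1.26 at *IGF1R*, 0.954 at *IGFBP6* and 0.824 at *IGFBP4*. *IGFBP1* and *IGFBP3* lie 18.6 kb apart and *IGFBP2* and *IGFBP5* 7.67 kb apart, so the genes of each pair have nearly the same surroundings. The genes at least 1.5-fold higher at the promoter (*IGF1*, *IGFBP1* and *IGFBP5*) all lay in surroundings with more MAK683 peaks. So did *IGFBP2*, *IGFBP3*, *IGFBP7* and *IGF1R*, whereas *IGFBP6* and *IGFBP4* lay in surroundings with slightly fewer. *IGFBP4*, with more peaks in MAK683, went against its surroundings, and *IGFBP3* had a log2 change of 0.01 beside the ratio of 2.88. *IGF1R* had fewer peaks in MAK683, and the ratio of 1.26 around it was below the 1.41 of the whole library. Its promoter change of -0.46 was near the median of -0.42 over all genes with a promoter peak. Whole chromosomes differed too, from 0.864 on chromosome 17 (*IGFBP4*) to 1.83 on chromosome 4 (*IGFBP7*). The part of these regional differences in the results of single genes was not tested.

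Among 21 other genes of the IGF pathway, chosen by role, 16 had a promoter peak in DMSO and 18 in MAK683, shares near the 72.7% and 78.7% of all genes. The median log2 change of the 18 was -0.09, beside -0.42 over all genes, with 9 higher and 9 lower. The 4 genes at least 1.5-fold higher, against 9.64% of all genes, included PAPPA and its inhibitors. *PAPPA*, the protease that cleaves IGFBP4, held 10 tags in DMSO and 25 in MAK683, a log2 change of 1.18 (0.13 to 2.24). *STC2*, which encodes an inhibitor of PAPPA, held 16 and 30 tags (0.77, -0.11 to 1.64). *STC1*, another such inhibitor, had no peak in DMSO and 17 tags in MAK683, 1.36 above the floor on the log2 scale. The fourth was *IRS2*, an adaptor that docks to the receptor, with 16 and 29 tags (0.72, -0.16 to 1.60).

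On the other side, 2 of the 18 pathway genes were at least 1.5-fold lower, against 32.8% of all genes. *INSR*, the insulin receptor and closest relative of IGF1R, held 26 tags in DMSO and 10 in MAK683, a log2 change of -1.52 (-2.57 to -0.46). *IGF2BP1*, which encodes a protein that binds *IGF2* mRNA, held 42 and 25 tags, a log2 change of -0.89 (-1.60 to -0.17). *IRS4*, another adaptor, had a promoter peak only in MAK683, with 9 tags. The ligand gene *IGF2* held 17 and 19 tags, a log2 change of 0.02 (-0.92 to 0.97). *IGFALS*, *PAPPA2* and *GRB10* had no promoter peak in either library.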

How the data were processed

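ATAC-seq was performed on 1 DMSO and 1 MAK683 culture of G401 cells. According to the study's methods, Trim-galore and Bowtie2 served for trimming and for alignment to hg19. Narrow peaks were called by the authors separately in the DMSO and MAK683 libraries, per the file headers by MACS 2.1.1.20160309 (the methods and the submitters' notes name MACS2 2.2.7.1, and the notes also 2.1.0), with a shift of -100 bp, an extension of 200 bp, a q-value cutoff of 0.05, no control, no local background and 1 tag kept per position. Reads were treated as single ends.

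The deposited pileup is a signal in whole tags over the summit, unscaled. Fold enrichment, also deposited, is a ratio over the background of the whole genome. Each deposited peak also has a −log10 p-value and a −log10 q-value, which depend on depth. The fold and −log10 q-value served only in alternatives.

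Here the pileup was divided by the filtered tags (16598348 in DMSO, 18265284 in MAK683) and multiplied by 1000000. Only peaks of the 24 main chromosomes entered, and their ends lay within the GRCh37 chromosome lengths. Genes and single TSSs came from GENCODE 44 lifted to this build. A missing peak was set to 0.361 RPM, the larger of the lowest called heights, although places with more tags can remain uncalled. Peaks overlapping by 1 bp were shared. Heights have exact Clopper-Pearson intervals, shares Wilson intervals, and log2 ratios Poisson intervals on the log scale. They cover counting error only, since without molecular identifiers, tags copied from 1 molecule cannot be recognised. The code was tested on simulated data with mostly taller peaks and a single peak per gene. The intervals were thus not checked at counts as low as most of those here, nor for the tallest of several peaks. All 9 genes are named, with the tallest peaks of each locus, pathway genes past 1.5-fold or with a peak in 1 library, and neighbours by position. Further peaks, and *IGF2*, were chosen after their values were seen. Some neighbouring genes and sequences are not reported here. The genes and lists were chosen with earlier results of these data known. Alternatives were other windows, TSS sets, peak filters, scalings, sharing rules, and genes with a peak in both libraries only. The floor was not varied on its own. Python 3.11.15, numpy 2.4.6, pandas 2.3.3, scipy 1.17.1 and matplotlib 3.10.9 were used.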

Additional observations from a re-analysis of the deposited data

How the results depend on the processing

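Of 366 alternative values, 316 stayed the same by the criteria used. These were a change within the counting interval of the value or within 1.5 times a count. Some values could not change: the sharing rules, for example, leave the numbers of peaks as they are. The log2 changes of *IGFBP1* and *IGF1* with a −log10 q of at least 5, 0.12 and 0.54, also counted as the same. The 316 therefore do not measure how robust the results are. With a −log10 q of at least 5, locus peaks numbered 69 in DMSO and 63 in MAK683, 59.4% and 58.7% of them shared, and 1 gene of the axis was at least 1.5-fold higher. With at least 10 they numbered 31 and 30, the MAK683 share was 66.7%, 1 gene was at least 1.5-fold higher, and *IGF1* reversed to -0.04. With equal peak numbers there were 97 MAK683 peaks against 108 and the DMSO share was 57.4%. In whole tags 0 genes were at least 1.5-fold lower, and over the median of shared regions 5 were higher and 0 lower. With a peak required in both libraries 1 was higher. Sharing by 50% of each peak gave 35.2% in DMSO and 27.1% in MAK683, and summits within 150 bp gave 27.8% and 21.4%. Without *IGF1R* there were 24 and 67 peaks, 87.5% and 20.9% shared. Without *IGFBP7*, an alternative chosen after seeing the data, 63.0% of MAK683 peaks were shared.

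The log2 change of *IGFBP5* ranged from 0.78 to 1.13 over the alternatives, that of *IGFBP6* from -0.70 to -0.35, that of *IGF1R* from -0.48 to -0.13, that of *IGFBP3* from -0.01 to 0.34, that of *IGFBP1* from 0.12 to 1.19 and that of *IGF1* from -0.04 to 1.61. The median of all promoters ranged from -0.46 to -0.10. No paired analysis was possible because each group has 1 library. The tallest promoter peaks of the axis held 10 to 44 tags, which limits the precision of every change.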

Other observations

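Genes next to the axis were compared in the same way. *IGFBP1* and *IGFBP3* are separated by 18.6 kb, in which neither library had a called peak, so the MAK683 peaks at both genes stayed apart. *IGFBP2* and *IGFBP5* are separated by 7.67 kb, with 2 peaks (984 bp) in DMSO and 3 (1917 bp) in MAK683. On the far side of *IGFBP1*, *CCDC201* held 10 tags in DMSO and 15 in MAK683, a log2 change of 0.45 (-0.71 to 1.60). Next to *IGF1*, *PMCH* had no promoter peak in either library. At *IGFBP7* the flanking genes went in opposite directions. *NOA1* held 53 and 37 tags, a log2 change of -0.66 (-1.26 to -0.05), and *ADGRL3*, 4089 kb away, held 14 and 25 tags (0.70, -0.25 to 1.64). Next to *IGFBP6*, *SOAT2* had a promoter peak of 9 tags in DMSO and none in MAK683. *TOP2A* beside *IGFBP4* held 32 and 24 tags, a log2 change of -0.55 (-1.32 to 0.21).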
